A study of Mus musculus with 12 samples.

Results

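The cells compared here were astrocytes of the mouse cerebral cortex, taken by fluorescence-activated cell sorting (FACS) 60 days after an experimental stroke or after a sham operation. The comparison rests on 4 of the 12 RNA sequencing libraries of the series, namely 2 from day 60 and 2 from sham, and on all genes of the deposited count table. That table lists 15774 genes, of which 15635 had enough counts to be tested. All mice were wild-type C57BL/6J. In the stroke groups the distal middle cerebral artery was tied off for good and both common carotid arteries were then closed for 7 min, while sham mice received a lesion of the skull surface only. The other 8 libraries come from days 1, 3, 7 and 21 after stroke. They entered the same fit, and days 7 and 21 served as comparisons.

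Total counts were 16575045 and 113052833 in the sham libraries (replicates 1 and 2) and 15875944 and 152838848 in the day 60 libraries, so that replicate 2 was 6.82 times as deep as replicate 1 in sham and 9.63 times at day 60. The labels give no age, sex, sort marker or pooling of animals, and they do not say how long after surgery the sham cells were taken, so age and time since surgery cannot be told apart from the day 60 condition. Nothing states that replicates came from separate mice, and p-values therefore measure only the spread between these samples. Levels are CPM values, that is counts divided by the library total and brought to a common scale, with the totals corrected by the trimmed mean of M-values (TMM). They are given for replicate 1 and then replicate 2, and they compare 1 gene between libraries, not genes with each other. Fold changes are log2 values ± standard error, from edgeR's quasi-likelihood F test with n = 2 libraries in each group. The test gives no standard error itself. It was worked out as the absolute log2 fold change divided by the square root of the test's F. The spread behind F was estimated over all 12 libraries. A gene was said to have risen or fallen where the Benjamini-Hochberg adjusted p over all genes tested was under 0.05. For every gene that passed and is given with its 4 levels, both libraries of one group lay above both of the other. Where sham held 0 counts, the fold is a lower bound against a floor of 3 counts in each sham library, a mean of 0.104 CPM, and where it held 1 to 3 counts the levels and the adjusted p are given in place of a fold. Bounds and intervals cover counting error only.

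Astrocytes clear glutamate and potassium from the extracellular space, cover blood vessels with water-channel-rich end-feet, and feed and shape synapses. After an injury they become reactive: they enlarge, produce intermediate filaments, cytokines, complement and acute phase proteins, and those next to a lesion form a border around it. Inside that border a fibrotic core of fibroblasts, blood vessels and immune cells lays down collagen, and phagocytes remove myelin and dead cells over weeks. Whether such cells return towards their former state after months is a question that a late time point such as day 60 addresses.

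At day 60 the sorted cells differed from sham in 4929 of 15635 genes (31.5%), of which 2621 were higher (16.8% of genes tested) and 2308 lower (14.8%). The median absolute log2 fold change of the genes that passed was 2.38, and 973 genes rose and 545 fell by more than 3 log2 units. The sign of the difference was the same within replicate 1 and within replicate 2 for 4920 of the 4929 genes. Over all genes tested the median log2 fold change was 0.01, and the 2 groups did not overlap for 67.5% of genes (33.1% higher and 34.3% lower at day 60), which is the background against which counts of members are to be read. Counts are also given with the replicate number as a block, a fit in which each replicate number has its own level, where that moves a list's count by more than 1.5 times. Leaving out sham replicate 1 or 2 left 2654 or 2793 genes that passed, and leaving out day 60 replicate 1 or 2 left 3441 or 2730.

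**Figure D1:**
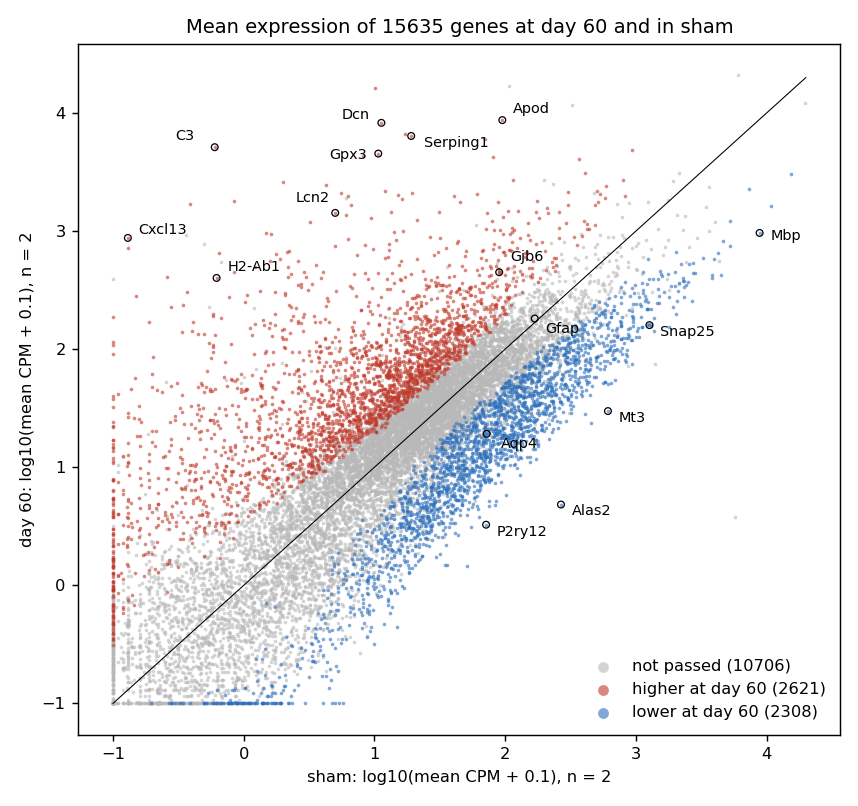
Mean level of each of the 15635 genes tested in sham (horizontal axis) and at day 60 (vertical axis), both as log10 of the mean CPM of 2 libraries plus 0.1, with genes that rose in red, genes that fell in blue and the rest in grey. The line marks equal levels; C3, Cxcl13, Lcn2, Dcn and Serping1 lie far above it, Mbp, Snap25, Mt3, P2ry12 and Alas2 lie far below it, and Gfap lies close to it.

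The label of the cells was checked against lists of marker genes for astrocytes and for 11 other cell types that a cortical cell suspension can hold. The astrocyte markers Slc1a3, a glutamate transporter, Gja1, the gap junction protein connexin 43, and Aldh1l1, a folate enzyme, were present in all 4 libraries. Slc1a3 stood at 603 and 513 CPM in sham and 339 and 383 CPM at day 60 (log2 fold change of -0.63 ± 0.44 with adjusted p = 0.301). Gja1 stood at 149 and 84.5 CPM in sham and 139 and 150.5 CPM at day 60 (log2 fold change of 0.31 ± 0.50 with adjusted p = 0.669). Aldh1l1 stood at 149 and 243 CPM in sham and 51.8 and 78.5 CPM at day 60 (log2 fold change of -1.59 ± 0.81 with adjusted p = 0.163). None of the 3 passed. Aqp4, which was also set as a defining astrocyte marker, fell, and its values are given below with the transport genes. Genes of the astrocyte identity list made up 2.07% and 1.86% of the counts in sham and 1.07% and 0.896% at day 60. Markers of other cells were also counted in every library, and several lists moved with the comparison. In bulk samples a change in the number of cells of a type and a change in the RNA per cell cannot be told apart.

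Of the 12 cell type lists, fibroblast and meningeal markers had the largest ratio between the shares of counts, at 0.0221% and 0.0202% in sham and 2.32% and 2.86% at day 60. Of 24 members, 23 rose and none fell, with a median log2 fold change of 4.96, and 22 or 23 rose when any 1 of the 4 libraries was left out. Dcn, decorin, a small proteoglycan that binds collagen fibrils, stood at 11 and 11.4 CPM in sham and 7202 and 9309 CPM at day 60 (log2 fold change of 9.52 ± 0.69 with adjusted p = 4.12e-05). Lum, lumican, another such proteoglycan, rose from 2.51 and 1.32 CPM in sham to 2664 and 2505 CPM at day 60 (log2 fold change of 10.42 ± 0.75 with adjusted p = 3.98e-05). The gene that did not pass was Nov, with a log2 fold change of 0.51. Macrophage and monocyte markers went from 0.00948% and 0.0323% to 0.543% and 0.49%, with 12 of 20 members higher and 1, Pf4, lower. Pf4 lost its call with any 1 of the 4 libraries left out. Gpnmb, a glycoprotein of lipid-laden phagocytes, was at 2.09 and 1.28 CPM in sham and at 575 and 696 CPM at day 60 (log2 fold change of 8.57 ± 1.19 with adjusted p = 0.000789). Cd5l, a protein secreted by macrophages, went from 0 and 0 CPM in sham to 134 and 48.6 CPM at day 60 (thus at least 876-fold higher, adjusted p = 4.79e-05). Of the defining macrophage markers, Emr1, the older symbol of Adgre1, which encodes the surface protein F4/80, stood at 5.49 and 7.13 CPM in sham and 15.6 and 22.8 CPM at day 60 (log2 fold change of 1.60 ± 0.33 with adjusted p = 0.00579, but 0.0506 when sham replicate 1 was left out), and Mrc1, the mannose receptor, stood at 0.717 and 3.1 CPM in sham and 1.78 and 10.4 CPM at day 60 and did not pass (log2 fold change of 1.65 ± 1.05 with adjusted p = 0.256). Ptprc, the protein CD45 of all white blood cells, rose from 2.09 and 1.98 CPM in sham to 14.3 and 17.1 CPM at day 60 (log2 fold change of 2.95 ± 0.72 with adjusted p = 0.0128, but 0.0709 and 0.0752 when sham replicate 1 or sham replicate 2 was left out).

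Lymphocyte markers were near the floor of detection in sham, at 0.000965% and 0.00103% of counts, and reached 0.00654% and 0.00566% at day 60. The list includes Ptprc, which is not particular to lymphocytes, and the share without it was not computed. Of 19 members tested 11 had 0 counts in both sham libraries, and 7 rose (1 to 4 with any 1 of the 4 libraries left out). Igj, the older symbol of Jchain, the joining chain of IgA and IgM, was at 0.597 and 1.03 CPM in sham and at 30.7 and 20.2 CPM at day 60 (log2 fold change of 4.93 ± 0.96 with adjusted p = 0.00456). Ms4a1, the B cell protein CD20, went from 0 and 0 CPM in sham to 0.515 and 2.29 CPM at day 60 (thus at least 13.5-fold higher, adjusted p = 0.0137, but 0.0501 and 0.098 when sham replicate 1 or sham replicate 2 was left out). Cd3g, a chain of the T cell receptor complex, stood at 0 and 0 CPM in sham and 1.09 and 1.6 CPM at day 60 (thus at least 12.9-fold higher, adjusted p = 0.0372, but 0.0679 to 0.179 when any 1 of the 4 libraries was left out). Cd3e, the defining T cell marker, had 0 counts in sham and stood at 0.344 and 0.689 CPM at day 60, and it did not pass (adjusted p = 0.0699). Cd79a, the other defining lymphocyte marker, did not pass either. Neutrophil markers held 0.00229% and 0.000896% of counts in sham and 0.0417% and 0.0575% at day 60, but 0.00197% and 0.000801% in sham and 0.00122% and 0.00174% at day 60 without Mmp9. Among 12 of them only Mmp9, a gelatinase that other cells also make, rose; 3 rose without sham replicate 1 and 3 with the replicate number as a block, and 2 fell without sham replicate 2. S100a8, 1 of the 2 defining neutrophil markers, stood at 4.78 and 0.5 CPM in sham and 0.687 and 0.479 CPM at day 60. The other, Csf3r, did not pass either.

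Microglial markers did not move as 1 group. They held 0.0982% and 0.101% of counts in sham and 0.184% and 0.117% at day 60, with 2 of 18 members higher and 7 lower. P2ry12, the purine receptor of resting microglia, fell from 80.5 and 62.4 CPM in sham to 2.52 and 3.81 CPM at day 60 (log2 fold change of -4.48 ± 0.61 with adjusted p = 0.000686). Siglech, a sialic acid receptor of microglia, was at 23.1 and 25.4 CPM in sham and at 2.98 and 1.84 CPM at day 60 (log2 fold change of -3.34 ± 0.55 with adjusted p = 0.00201). Olfml3, a secreted protein made by microglia and by other cells, went from 32 and 27.2 CPM in sham to 399 and 285 CPM at day 60 (log2 fold change of 3.53 ± 0.37 with adjusted p = 0.000185). Tmem119, the other defining microglial marker, went the other way from P2ry12, at 60.6 and 35.2 CPM in sham and 186 and 101 CPM at day 60, and did not pass (log2 fold change of 1.59 ± 0.56 with adjusted p = 0.0552). Of these genes 1 was higher without sham replicate 1, sham replicate 2 or day 60 replicate 1, 3 were lower without sham replicate 1, sham replicate 2 or day 60 replicate 1, and 6 were higher with the replicate number as a block.

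Most neuron markers were lower at day 60, while 4 of 16 oligodendrocyte markers fell and 3 rose. Of all genes tested 14.8% fell and 16.8% rose. Neuron markers made up 1.07% and 1.23% of counts in sham and 0.159% and 0.123% at day 60, and 20 of 23 fell and none rose, with a median log2 fold change of -2.99. Snap25, a protein of synaptic vesicle fusion, stood at 1402 and 1138 CPM in sham and 149 and 170.0 CPM at day 60 (log2 fold change of -2.99 ± 0.35 with adjusted p = 0.000309). Syp, synaptophysin, of the synaptic vesicle membrane, fell from 365 and 273 CPM in sham to 35.1 and 27.4 CPM at day 60 (log2 fold change of -3.35 ± 0.54 with adjusted p = 0.00181). Npy, neuropeptide Y, was at 24.7 and 25.4 CPM in sham and at 2.58 and 2.2 CPM at day 60 (log2 fold change of -3.40 ± 0.51 with adjusted p = 0.00121). Oligodendrocyte markers held 1.07% and 0.989% in sham and 0.416% and 0.48% at day 60. Mobp, a myelin protein, went from 520.3 and 632 CPM in sham to 45.8 and 58.9 CPM at day 60 (log2 fold change of -3.46 ± 0.43 with adjusted p = 0.000425), and 4 of 16 members fell and 3 rose. Mbp, myelin basic protein, stood at 9070.2 and 8610.0 CPM in sham and 1125 and 805 CPM at day 60 (log2 fold change of -3.20 ± 0.45 with adjusted p = 0.000798). Those that rose were Trf, Aspa and Cldn11. Cldn11 lost its call with day 60 replicate 1 or sham replicate 2 left out. Trf, transferrin, the iron carrier, rose from 89.2 and 141 CPM in sham to 1984 and 3428 CPM at day 60 (log2 fold change of 4.56 ± 0.53 with adjusted p = 0.000316), and transferrin is also on the list of acute phase and iron genes.

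Of 12 oligodendrocyte precursor markers 5 fell and 1, Pdgfra, rose (1 to 3 fell with any 1 of the 4 libraries left out). Pdgfra, the receptor that marks both these precursors and fibroblasts, was at 12.2 and 20.8 CPM in sham and at 216 and 407 CPM at day 60 (log2 fold change of 4.24 ± 0.49 with adjusted p = 0.000303), whereas Bcas1, a protein of newly formed oligodendrocytes, went from 417 and 538 CPM in sham to 62.2 and 52.9 CPM at day 60 (log2 fold change of -3.05 ± 0.43 with adjusted p = 0.00091). Of 16 pericyte and smooth muscle markers 4 were higher and 2 lower, where 16.8% of all genes tested rose and 14.8% fell. Anpep, the aminopeptidase CD13, stood at 0.478 and 0.491 CPM in sham and 16.8 and 33.7 CPM at day 60 (log2 fold change of 5.70 ± 0.57 with adjusted p = 0.000132), while Acta2, smooth muscle actin, fell from 272 and 347 CPM in sham to 41.8 and 48.6 CPM at day 60 (log2 fold change of -2.78 ± 0.32 with adjusted p = 0.000271). Of the 2 defining pericyte markers, Pdgfrb rose and Rgs5 did not pass. Rgs5 stood at 40.4 and 27.1 CPM in sham and 33.3 and 21.4 CPM at day 60 (log2 fold change of -0.30 ± 0.60 with adjusted p = 0.731). Of the pericyte list, 1 was lower without sham replicate 2, day 60 replicate 1 or day 60 replicate 2. Of 17 endothelial markers 1, Emcn, rose, and it did not pass with any 1 of the 4 libraries left out. Pecam1, an adhesion molecule of endothelium, stood at 57.9 and 93.6 CPM in sham and 61.7 and 97.7 CPM at day 60 and did not pass (log2 fold change of 0.07 ± 0.61 with adjusted p = 0.943). Slco1a4, a transporter of brain vessels, stood at 170.0 and 941 CPM in sham and 126 and 943 CPM at day 60, so that the groups overlapped. Of 15 ependymal and choroid plexus markers 4 fell and none rose. Of the ependymal list, 2 were lower without sham replicate 2 and 1 with day 60 replicate 2 left out. Their share of counts was 0.0333% and 0.066% in sham and 0.00612% and 0.00425% at day 60.

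**Figure D2:**
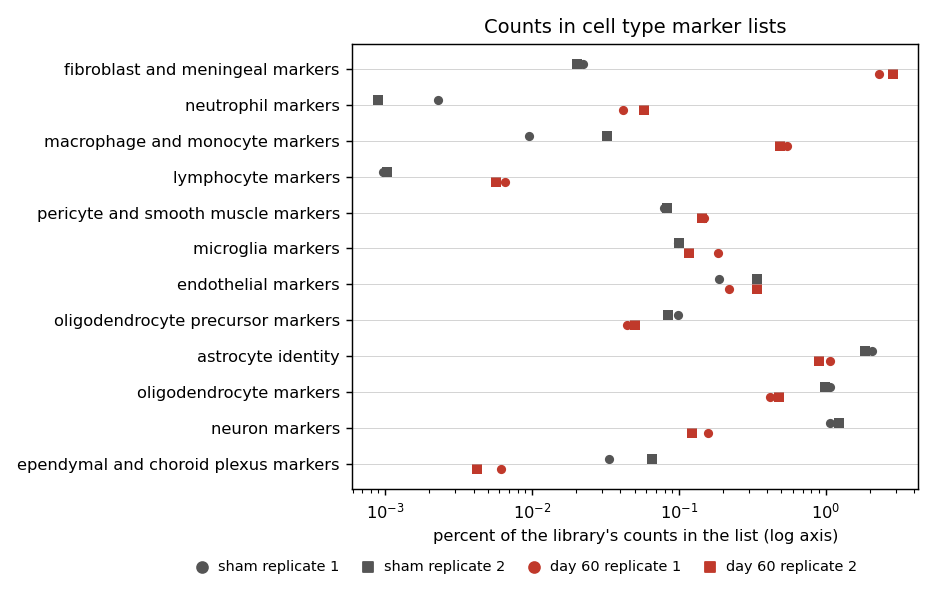
Percent of each library's counts (logarithmic axis) that fell in the genes of each cell type marker list, for the 2 sham libraries in grey and the 2 day 60 libraries in red, with a circle for replicate 1 and a square for replicate 2. Fibroblast markers rise from 0.0221% and 0.0202% to 2.32% and 2.86%, neuron markers drop from 1.07% and 1.23% to 0.159% and 0.123%, and endothelial markers overlap between the groups.

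Because these lists moved with the groups, their shares are to be read beside the gene groups that follow. What part RNA of other cells has in each result was not tested. The lists overlap in some members, 19 of their 965 entries (Ugt1a1, H2-Q6, H2-Q7, H2-T22, C1s, Cfd, Orm1, Orm2, Hamp, Has3, Lrat, Msmo1, Ciart, Rpl3, Ly6g, Trac, Ighm, Igkc and Meg3) were not analysed here, and 1 was not tested because its counts were too low. Medians include fitted values of genes near 0 in sham, which depend on the prior count. Members given below because they did not pass, or because they are the best known of their group, were chosen after their values were seen. Coordinates are those of protein-coding genes in GENCODE M21 on mm10.

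In the main fit, which has no replicate block, most genes that define cortical astrocytes did not pass, and of the others more fell than rose. Of 35 tested members, 2 rose and 10 fell, with a median log2 fold change of -1.59 against 0.01 over all genes. Ntsr2, a neurotensin receptor of astrocytes, was at 342 and 270.2 CPM in sham and at 73 and 57.4 CPM at day 60 (log2 fold change of -2.23 ± 0.53 with adjusted p = 0.0118, but 0.079 and 0.0539 when day 60 replicate 2 or sham replicate 1 was left out). S100b, a calcium-binding protein of astrocytes, went from 365 and 189 CPM in sham to 87.2 and 32.5 CPM at day 60 (log2 fold change of -2.21 ± 0.71 with adjusted p = 0.0374, but 0.0514 to 0.192 when any 1 library other than day 60 replicate 1 was left out). Gjb6 and F3 were the members that rose. Gjb6, the gap junction protein connexin 30, stood at 112 and 67.5 CPM in sham and 523 and 374 CPM at day 60 (log2 fold change of 2.32 ± 0.40 with adjusted p = 0.0025), and F3, tissue factor, the starter of blood clotting, rose from 46.1 and 39.1 CPM in sham to 197 and 178 CPM at day 60 (log2 fold change of 2.14 ± 0.43 with adjusted p = 0.00524). Of the 35, 0 to 2 were lower with any 1 of the 4 libraries left out, and 20 were lower with the replicate number as a block.

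Among transport genes of the synapse and the vessel more fell than rose. Of 26 tested genes for uptake of glutamate, GABA and potassium and for end-feet, 10 fell and 4 rose (median log2 fold change -1.27). Kcnj16, an inward rectifier potassium channel subunit, was at 44.4 and 26.6 CPM in sham and at 4.3 and 3.23 CPM at day 60 (log2 fold change of -3.24 ± 0.65 with adjusted p = 0.00521). Dtna, dystrobrevin, which anchors the end-foot complex, went from 173 and 281 CPM in sham to 37.9 and 58 CPM at day 60 (log2 fold change of -2.24 ± 0.75 with adjusted p = 0.0454, but 0.0748 to 0.178 when any 1 of the 4 libraries was left out). Aqp4, the water channel of end-feet, stood at 85 and 59.1 CPM in sham and 23.2 and 14.9 CPM at day 60 (log2 fold change of -1.92 ± 0.59 with adjusted p = 0.0328, but 0.0599 to 0.168 when any 1 of the 4 libraries was left out). Abat, the enzyme that breaks down GABA, stood at 335 and 442 CPM in sham and 90 and 148 CPM at day 60 (log2 fold change of -1.71 ± 0.55 with adjusted p = 0.0384, but 0.0772 to 0.169 when any 1 of the 4 libraries was left out). Of the 4 that rose, Slc7a11, the cystine-glutamate antiporter, did so from 13.6 and 5.41 CPM in sham to 371 and 283 CPM at day 60 (log2 fold change of 5.11 ± 0.55 with adjusted p = 0.000208). Glul, glutamine synthetase, stood at 1130.1 and 885 CPM in sham and 502 and 460.4 CPM at day 60 and did not pass (log2 fold change of -1.07 ± 0.43 with adjusted p = 0.0836). Kcnj10, the main glial potassium channel, stood at 73.5 and 20.2 CPM in sham and 27.9 and 3.78 CPM at day 60 and did not pass either (log2 fold change of -1.57 ± 1.0 with adjusted p = 0.257). Of these genes 2 were higher without sham replicate 1 or day 60 replicate 2, and 1 to 3 were lower with any 1 of the 4 libraries left out.

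Secreted and surface factors by which astrocytes act on synapses included 9 of 19 that rose and 3 that fell. Thbs2, thrombospondin 2, which promotes synapse formation, rose from 2.51 and 3.03 CPM in sham to 253 and 640.2 CPM at day 60 (log2 fold change of 7.33 ± 0.65 with adjusted p = 8.07e-05). Thbs1, thrombospondin 1, was at 3.17 and 4.13 CPM in sham and at 67 and 146 CPM at day 60 (log2 fold change of 4.86 ± 0.59 with adjusted p = 0.000371). Gpc6, a glypican, went from 8.6 and 5.19 CPM in sham to 68.2 and 87.3 CPM at day 60 (log2 fold change of 3.50 ± 0.47 with adjusted p = 0.000607). Gdnf, a neurotrophic factor, stood at 0 and 0.154 CPM in sham and 2.35 and 1.97 CPM at day 60 (log2 fold change of 4.39 ± 1.26 with adjusted p = 0.0251, but 0.0587 to 0.104 when any 1 library other than sham replicate 2 was left out). Among those that fell were Nlgn1 and Chrdl1, with log2 fold changes of -2.82 for Nlgn1 and -1.86 for Chrdl1. The call was lost for Nlgn1 with day 60 replicate 2 left out and Chrdl1 with day 60 replicate 1, sham replicate 1 or sham replicate 2 left out. Of its members, 5 were lower with the replicate number as a block.

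Most members of the reactive astrocyte lists were higher at day 60, while Gfap, the intermediate filament protein usually used to mark reactivity, did not pass. Gfap stood at 161 and 175 CPM in sham and 186 and 178 CPM at day 60 (log2 fold change of 0.11 ± 0.61 with adjusted p = 0.912). Of 13 pan-reactive genes 9 rose and none fell (median 3.90). Steap4, a metalloreductase of iron and copper, rose from 1.25 and 0.24 CPM in sham to 383 and 516 CPM at day 60 (log2 fold change of 9.36 ± 0.95 with adjusted p = 0.000142). Aspg, an asparaginase, was at 2.39 and 1.55 CPM in sham and at 291 and 284 CPM at day 60 (log2 fold change of 7.21 ± 0.81 with adjusted p = 0.000249). Lcn2, a siderophore-binding protein, went from 4.3 and 5.51 CPM in sham to 1354 and 1498 CPM at day 60 (log2 fold change of 8.18 ± 0.58 with adjusted p = 3.98e-05), the gene lying at chr2:32384633-32388252, minus strand. The 4 that did not pass were Gfap, Serpina3n, Timp1 and Hspb1, with log2 fold changes of 0.11 for Gfap, -0.13 for Serpina3n, -0.26 for Timp1 and 0.77 for Hspb1.

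More members rose than fell both among genes first linked to an inflammatory form of reactivity (A1) and among those first linked to ischaemia (A2). Of 12 A1-associated genes tested 7 rose and 1, Amigo2, fell (median 3.38). Serping1, the inhibitor of complement component C1, stood at 19.5 and 18.4 CPM in sham and 5677 and 7100.1 CPM at day 60 (log2 fold change of 8.40 ± 0.57 with adjusted p = 3.98e-05); it lies at chr2:84765387-84775444, minus strand. Fbln5, an elastic fibre protein, rose from 4.78 and 6.45 CPM in sham to 72.5 and 93.3 CPM at day 60 (log2 fold change of 3.88 ± 0.34 with adjusted p = 7.6e-05). C3, the central complement component, was at 0.538 and 0.462 CPM in sham and at 3005 and 7265 CPM at day 60 (log2 fold change of 13.34 ± 1.47 with adjusted p = 0.000225); it lies at chr17:57203970-57228136, minus strand. Of 13 A2-associated genes 11 rose and none fell (median 3.38), but 6 or 7 rose with any 1 of the 4 libraries left out. Sphk1, sphingosine kinase 1, went from 2.27 and 1.56 CPM in sham to 138 and 105 CPM at day 60 (log2 fold change of 6.01 ± 0.54 with adjusted p = 8.07e-05). Tgm1, a transglutaminase, stood at 0.239 and 0 CPM in sham and 2.35 and 4.94 CPM at day 60 (log2 fold change of 6.05 ± 1.39 with adjusted p = 0.00978). Ptx3, a long pentraxin, rose from 0.896 and 0.471 CPM in sham to 21.4 and 8.24 CPM at day 60 (log2 fold change of 4.49 ± 0.74 with adjusted p = 0.00194). No test compared the A1 list with the A2 list. The fall of Amigo2 (-1.87) did not pass without sham replicate 1, sham replicate 2 or day 60 replicate 1.

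Of 26 cytoskeletal and membrane-linked genes of reactive glia 14 rose and none fell (median 1.42). Anxa1, annexin A1, a membrane-binding protein that dampens inflammation, was at 14.3 and 14.7 CPM in sham and at 683 and 1006 CPM at day 60 (log2 fold change of 5.86 ± 0.58 with adjusted p = 0.000121). Cnn2, calponin 2, which binds actin, went from 34.9 and 28.4 CPM in sham to 368 and 333 CPM at day 60 (log2 fold change of 3.47 ± 0.40 with adjusted p = 0.0003). Flnc, filamin C, an actin crosslinker, stood at 0.478 and 3.28 CPM in sham and 34.2 and 38.8 CPM at day 60 (log2 fold change of 4.21 ± 0.73 with adjusted p = 0.0025). Tubb6, a tubulin, rose by 3.63 and Vim, vimentin, by 2.08 log2 units, whereas Nes, nestin, did not pass at 0.94. Among these 26 genes, 2 were lower with the replicate number as a block.

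Inflammatory signalling genes that rose included ligands, receptors and feedback inhibitors. In the IL-6 family and STAT3 list 12 of 18 rose and none fell (median 2.54). Il6, the cytokine interleukin 6, rose from 0.179 and 0.0192 CPM in sham to 21.6 and 10.9 CPM at day 60 (log2 fold change of 8.14 ± 1.28 with adjusted p = 0.00151). Osmr, the oncostatin M receptor, was at 6.57 and 7.11 CPM in sham and at 63.9 and 140.2 CPM at day 60 (log2 fold change of 3.90 ± 0.42 with adjusted p = 0.000197). Socs3, the feedback inhibitor of this pathway, went from 9.91 and 5.73 CPM in sham to 265 and 164 CPM at day 60 (log2 fold change of 4.78 ± 0.84 with adjusted p = 0.00268). The ligands Lif and Il11 and the receptor chains Il6ra, Lifr and Cntfr did not pass. Of the 18, 1 was lower with the replicate number as a block. In the TNF, IL-1 and NF-kB list 18 of 20 rose and none fell (median 3.40). Tnf, the cytokine tumour necrosis factor, stood at 0.299 and 0.346 CPM in sham and 8.76 and 9.25 CPM at day 60 (log2 fold change of 4.77 ± 0.63 with adjusted p = 0.000599). Il1rn, the natural antagonist of the interleukin 1 receptor, rose from 0.0597 and 0 CPM in sham to 37.3 and 20.4 CPM at day 60 (adjusted p = 0.000399). Tnfaip3, the deubiquitinase A20, which limits NF-kB, was at 1.49 and 4.65 CPM in sham and at 80.4 and 97.6 CPM at day 60 (log2 fold change of 4.83 ± 0.84 with adjusted p = 0.00265). Birc3, an NF-kB target that restrains cell death, went from 2.33 and 2.66 CPM in sham to 61 and 74.7 CPM at day 60 (log2 fold change of 4.76 ± 0.60 with adjusted p = 0.000466). The transcription factor subunits Rela, Nfkb1, Relb and Nfkb2 rose by 1.86, 2.25, 2.62 and 2.91 log2 units. Nfkb1 lost its call with day 60 replicate 1, sham replicate 1 or sham replicate 2 left out.

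Of 22 chemokine genes tested 16 rose and 1 fell (median 5.07). Cxcl13, which attracts B cells, stood at 0.0597 and 0 CPM in sham and 1023 and 727 CPM at day 60 (adjusted p = 3.98e-05); the gene lies at chr5:95956951-95961068, plus strand. Cxcl5, a neutrophil attractant, rose from 0.478 and 0.212 CPM in sham to 147 and 121 CPM at day 60 (log2 fold change of 8.75 ± 0.66 with adjusted p = 4.69e-05). Ccl7, a monocyte attractant, was at 0.119 and 0.0866 CPM in sham and at 122 and 50 CPM at day 60 (log2 fold change of 9.79 ± 0.85 with adjusted p = 7.56e-05). Cxcl9, an interferon-induced attractant of T cells, went from 0.0597 and 0 CPM in sham to 15.1 and 6.66 CPM at day 60 (adjusted p = 0.00927, but 0.0724 when sham replicate 2 was left out). Cxcl12, which most stromal cells make, rose by 6.43 log2 units. Cxcl14 was the member that fell (-2.41), and it did not pass without sham replicate 1 or day 60 replicate 2. The macrophage and lymphocyte marker shares given above rose beside the chemokines, and their part in the result was not tested.

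Nearly every interferon-stimulated gene was higher. Of 30 tested, 29 rose and none fell (median 3.29), where 16.8% of all genes tested rose. Irf7, the transcription factor that amplifies the interferon response, stood at 11.9 and 14 CPM in sham and 282 and 362 CPM at day 60 (log2 fold change of 4.64 ± 0.43 with adjusted p = 9.82e-05). Zbp1, a sensor of Z-form nucleic acid, rose from 0.836 and 0.75 CPM in sham to 54.5 and 39.4 CPM at day 60 (log2 fold change of 5.90 ± 0.42 with adjusted p = 3.98e-05). Mx2, an antiviral GTPase, was at 0.358 and 0.0481 CPM in sham and at 8.13 and 6.72 CPM at day 60 (log2 fold change of 5.51 ± 1.11 with adjusted p = 0.00539). Mx1, its relative, went from 0.179 and 0 CPM in sham to 6.47 and 6.84 CPM at day 60 (adjusted p = 0.00963). Rsad2 was the member that did not pass (0.60). Between 24 and 27 rose with any 1 of the 4 libraries left out.

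Promoter sequences of this list are shown because many of its members moved together. They come from RefSeq on GRCm38.p6 and cover 250 bases before to 50 after each gene's start. The motif searched, on both strands, was the core of the interferon-stimulated response element, a pair of GAAA half-sites set apart by any 2 bases. It occurred in the windows of 13 of the 21 list members that could be matched, and in 1131 of 32851 windows of all genes (3.44%). The windows of Oas1a, Ifit1, Ifit3 and Stat2, which encode an antiviral oligoadenylate synthetase, 2 tetratricopeptide proteins that bind foreign RNA and a signalling factor of the interferon receptor, hold the motif in capitals, on one strand or the other; these 4 genes were chosen after their values were seen. In Oas1a 2 matches overlap. A match is a description of the sequence and not evidence of a bound factor.
Oas1a (chr5:120907526-120907589, minus strand): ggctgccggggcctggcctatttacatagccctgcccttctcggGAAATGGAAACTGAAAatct
Ifit1 (chr19:34640754-34640863, plus strand): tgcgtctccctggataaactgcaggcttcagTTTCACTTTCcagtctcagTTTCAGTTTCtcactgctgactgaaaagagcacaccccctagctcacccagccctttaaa
Ifit3 (chr19:34583357-34583466, plus strand): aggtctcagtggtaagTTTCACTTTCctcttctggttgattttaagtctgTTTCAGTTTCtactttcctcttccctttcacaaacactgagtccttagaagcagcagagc
Stat2 (chr10:128270248-128270335, plus strand): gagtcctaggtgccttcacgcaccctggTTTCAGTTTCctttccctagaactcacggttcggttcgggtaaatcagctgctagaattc

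Each of these 4 genes rose, because only members that rose were taken for display. Oas1a stood at 4 and 9.05 CPM in sham and 56.7 and 175 CPM at day 60 (log2 fold change of 4.14 ± 1.09 with adjusted p = 0.0177, but 0.0607 to 0.112 when any 1 library other than day 60 replicate 1 was left out). Ifit1 rose from 18.8 and 8.97 CPM in sham to 214 and 149 CPM at day 60 (log2 fold change of 3.71 ± 0.58 with adjusted p = 0.00148). Ifit3 was at 34.1 and 18.4 CPM in sham and at 362 and 319 CPM at day 60 (log2 fold change of 3.70 ± 0.42 with adjusted p = 0.000274). Stat2 went from 5.08 and 10.9 CPM in sham to 76 and 99.7 CPM at day 60 (log2 fold change of 3.45 ± 0.63 with adjusted p = 0.00331). In all 4 cases the higher of the 2 sham libraries lay below the lower of the 2 day 60 libraries. The same held for 33.1% of all genes tested, and these 4 were picked among members that rose, so it is no separate result.

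Most antigen presentation genes of both classes were higher. For class I 13 of 17 tested genes rose and none fell (median 3.28). H2-K1, a classical class I heavy chain, stood at 107 and 86.5 CPM in sham and 1643 and 1008 CPM at day 60 (log2 fold change of 3.78 ± 0.55 with adjusted p = 0.00099). Tap1, a subunit of the peptide transporter, rose from 4.42 and 6.03 CPM in sham to 82.4 and 111 CPM at day 60 (log2 fold change of 4.21 ± 0.36 with adjusted p = 7.45e-05). Tapbp, tapasin, which loads peptide, was at 89.7 and 91.5 CPM in sham and at 1017 and 1014 CPM at day 60 (log2 fold change of 3.49 ± 0.39 with adjusted p = 0.000244). Nlrc5, the transactivator of class I genes, went from 0.717 and 0.077 CPM in sham to 10.9 and 7.13 CPM at day 60 (log2 fold change of 4.71 ± 1.14 with adjusted p = 0.0121, but 0.0547 when sham replicate 2 was left out). Class I heavy chains are near-identical to each other, so how reads were divided between them is uncertain.

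Class II genes present peptides to helper T cells and are made mainly by professional antigen-presenting cells. Of 15 tested 9 rose and none fell (median 3.60, and 2.05 without day 60 replicate 2). H2-Ab1, the class II beta chain, stood at 0.299 and 0.741 CPM in sham and 458 and 343 CPM at day 60 (log2 fold change of 9.49 ± 0.97 with adjusted p = 0.00015); it lies at chr17:34257689-34269419, plus strand. H2-Aa, the matching alpha chain, rose from 0.597 and 0.375 CPM in sham to 221 and 161 CPM at day 60 (log2 fold change of 8.68 ± 0.97 with adjusted p = 0.000249). H2-Eb1, the beta chain of the E molecule, was at 0.418 and 0.712 CPM in sham and at 205 and 161 CPM at day 60 (log2 fold change of 8.27 ± 0.88 with adjusted p = 0.00019). Cd74, the invariant chain, rose by 8.61 log2 units. Ciita, the transactivator of the class, stood at 1.43 and 2.31 CPM in sham and 7.39 and 6.32 CPM at day 60 and did not pass (log2 fold change of 1.86 ± 0.70 with adjusted p = 0.0662). Class II genes are also expressed by macrophages and B cells, whose markers were higher in the same libraries.

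Promoters of this class share a Y box, an inverted CCAAT motif. The letters CTGATTGG were searched on both strands and occurred in the windows of 3 of 11 matched members, H2-Aa, H2-Eb1 and H2-Oa, and in 1346 of 32851 windows (4.1%). In the windows of H2-Aa and H2-Eb1 the letters, in capitals, begin 51 and 62 bases before the gene's start. H2-Oa, which holds the same letters, did not pass (1.0).
H2-Aa (chr17:34287824-34287924, minus strand): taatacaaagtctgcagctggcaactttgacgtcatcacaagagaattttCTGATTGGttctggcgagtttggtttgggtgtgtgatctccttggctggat
H2-Eb1 (chr17:34305755-34305862, plus strand): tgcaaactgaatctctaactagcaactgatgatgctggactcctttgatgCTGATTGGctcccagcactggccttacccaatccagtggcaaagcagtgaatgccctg

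Of 21 complement genes tested 12 rose and none fell (median 5.18, and 2.83 without day 60 replicate 2). Cfi, factor I, which inactivates C3b, went from 0 and 0 CPM in sham to 8.76 and 12.7 CPM at day 60 (thus at least 103-fold higher, adjusted p = 0.000264). C4b, component 4, stood at 1.31 and 18.7 CPM in sham and 884 and 31807 CPM at day 60 (log2 fold change of 10.66 ± 3.18 with adjusted p = 0.0289, but 0.0787 to 0.139 when any 1 library other than day 60 replicate 1 was left out). C1ra, a protease of the C1 complex, rose from 1.79 and 14.5 CPM in sham to 517 and 8078 CPM at day 60 (log2 fold change of 9.03 ± 2.43 with adjusted p = 0.0192, but 0.0603 to 0.108 when any 1 library other than day 60 replicate 1 was left out). C4b and C1ra differed widely between the day 60 replicates, and their paralogs C4a and C1rb, which are near-identical to them, did not pass, so the division of reads within each pair is uncertain. Complement genes took up 0.222% and 0.285% of counts in sham and 1.67% and 10.7% at day 60. Cfb and C2 rose by 5.89 and 6.72 log2 units. The subunits of C1q, C1qa, C1qb and C1qc, which microglia make, did not pass, with log2 fold changes of 1.07 for C1qa, 1.64 for C1qb and 1.25 for C1qc.

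Acute phase proteins and iron carriers included 10 of 19 tested that rose and 1, Tfrc, the transferrin receptor, that fell (-1.69, lost without sham replicate 2 or day 60 replicate 1). The median was 4.56, and 1.72 without day 60 replicate 2. It was 3.83 with the genes at 0 in sham set to their bound. Saa3, serum amyloid A3, was at 0.179 and 1.15 CPM in sham and at 309 and 242 CPM at day 60 (log2 fold change of 8.55 ± 0.80 with adjusted p = 9.98e-05). Saa1, serum amyloid A1, went from 0.0597 and 0 CPM in sham to 13.1 and 12.4 CPM at day 60 (adjusted p = 0.000586). Saa2 shares most of its sequence with Saa1, so reads of these 2 genes are uncertain. Serpina3n, a protease inhibitor that reactive astrocytes make in quantity, did not pass, at 4.54 and 7.34 CPM in sham and 2.86 and 7.93 CPM at day 60 (log2 fold change of -0.13 ± 0.66 with adjusted p = 0.902).

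**Figure D3:**
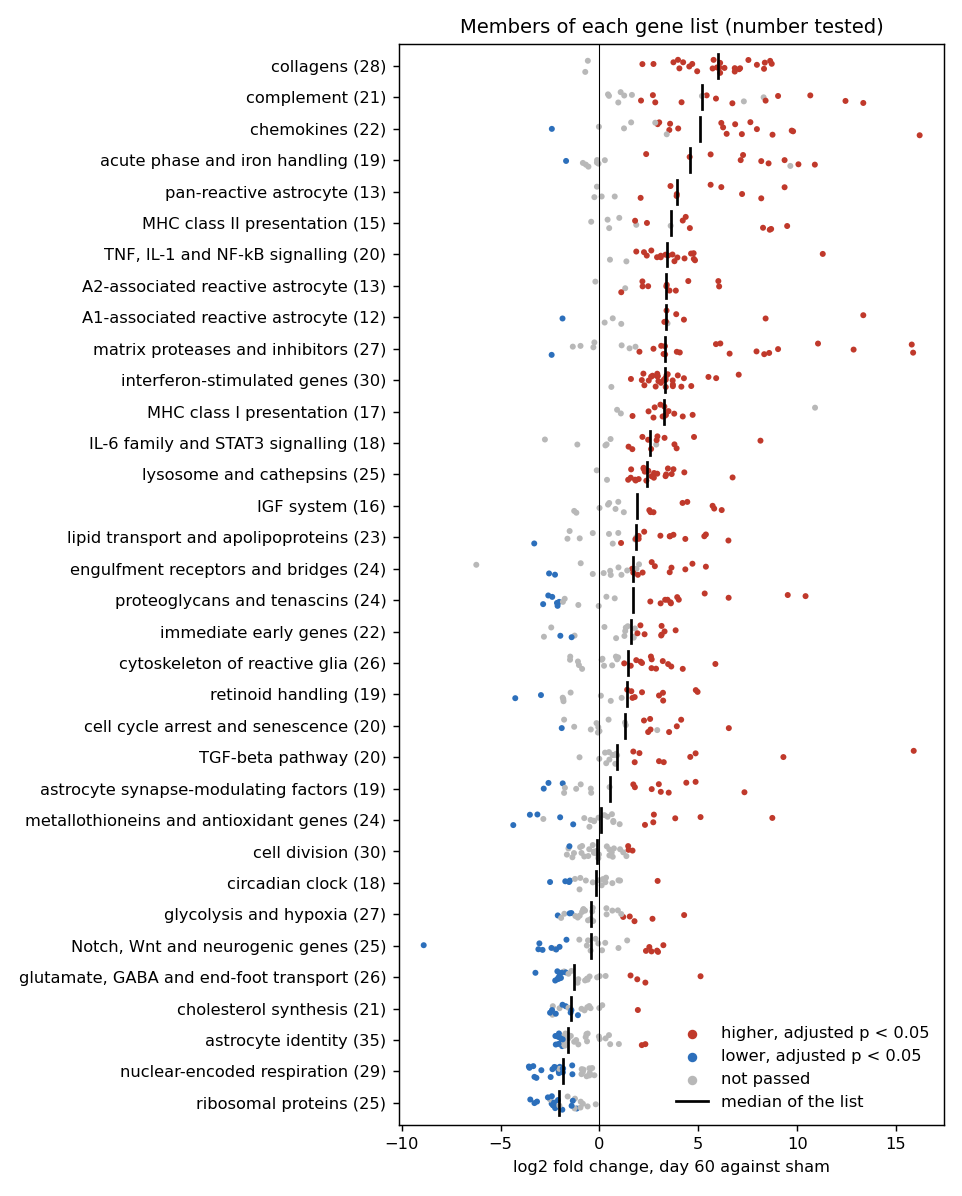
Log2 fold change of day 60 against sham (horizontal axis) for each tested member of the 34 process and astrocyte lists (rows, with the number tested), in red where the member rose, in blue where it fell and in grey where it did not pass, with a black bar at the list's median. Collagens lie at the top with a median of 6.00 and ribosomal proteins at the bottom with -2.03; the fitted values of genes with 0 to 3 counts in sham depend on the prior count.

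Collagens had the highest median of the 45 lists, and they were higher in the same libraries as the fibroblast markers, which held 0.0221% and 0.0202% of counts in sham and 2.32% and 2.86% at day 60. Of 28 collagen genes tested 26 rose and none fell (median 6.00), and 22 to 26 rose with any 1 of the 4 libraries left out. Col1a2, a chain of fibrillar collagen I, stood at 12.4 and 21.3 CPM in sham and 4270.4 and 9141 CPM at day 60 (log2 fold change of 8.63 ± 1.32 with adjusted p = 0.00135); it lies at chr6:4504814-4541544, plus strand. Col1a1, the other chain of collagen I, rose from 7.35 and 5.02 CPM in sham to 1061 and 2871 CPM at day 60 (log2 fold change of 8.32 ± 1.70 with adjusted p = 0.00569); it lies at chr11:94936224-94953042, plus strand. Col6a3, a chain of the beaded-filament collagen VI, was at 0.0597 and 0.135 CPM in sham and at 49.7 and 46.3 CPM at day 60 (log2 fold change of 8.71 ± 0.59 with adjusted p = 3.98e-05). The basement membrane chains Col4a1 and Col4a2 rose by 2.73 and 2.17 log2 units. Both lost the call with day 60 replicate 2 or sham replicate 1 left out. Col11a2 and Col25a1 did not pass. Collagen genes held 0.0137% and 0.0241% of counts in sham and 1.14% and 2.01% at day 60. Several of the fibroblast markers are themselves collagens, and the 2 lists are not independent.

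Proteoglycans and tenascins moved in both directions. Of 24 tested 12 rose and 6 fell (median 1.67, and 2.65 in a fit of the 4 libraries alone). Bgn, biglycan, a small leucine-rich proteoglycan, went from 7.7 and 8.91 CPM in sham to 709 and 829 CPM at day 60 (log2 fold change of 6.53 ± 0.47 with adjusted p = 4.12e-05). Omd, osteomodulin, of the same family, stood at 0.717 and 0.106 CPM in sham and 13.2 and 15 CPM at day 60 (log2 fold change of 5.32 ± 0.84 with adjusted p = 0.0016). Tnc, the tenascin of injured tissue, rose by 3.09 log2 units. The 6 that fell were Hapln4, Hapln1, Ncan, Cspg5, Aspn and Ptprz1, with log2 fold changes of -2.85 for Hapln4, -2.59 for Hapln1, -2.39 for Ncan, -2.15 for Cspg5, -2.12 for Aspn and -2.04 for Ptprz1. The call was lost for Hapln1 with day 60 replicate 1, day 60 replicate 2 or sham replicate 1 left out, Ncan with day 60 replicate 2 left out, Cspg5 with day 60 replicate 1, day 60 replicate 2 or sham replicate 1 left out and Ptprz1 with any 1 of the 4 libraries left out. Of these, Hapln1, Hapln4 and Ncan build the hyaluronan matrix around neurons. Of these genes 3 were lower without sham replicate 1 or day 60 replicate 1 and 2 with day 60 replicate 2 left out.

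Most genes of the proteases that cut this matrix were higher too. Fibroblasts and macrophages make several of them, and the part of these cells' RNA was not tested. Of 27 proteases and inhibitors 19 rose and 1, Mmp17, fell (median 3.32), and Mmp17 did not pass with any 1 of the 4 libraries left out. Mmp3, stromelysin 1, rose from 0.538 and 0.0385 CPM in sham to 1079.7 and 2283 CPM at day 60 (log2 fold change of 12.85 ± 1.59 with adjusted p = 0.000407); it lies at chr9:7445822-7455975, plus strand. Mmp13, a collagenase, was at 0.358 and 0 CPM in sham and at 166 and 288 CPM at day 60 (log2 fold change of 11.05 ± 1.70 with adjusted p = 0.00135). Mmp12, the elastase of macrophages, went from 0 and 0 CPM in sham to 71.9 and 146 CPM at day 60 (thus at least 1046-fold higher, adjusted p = 7.45e-05). Mmp9, gelatinase B, stood at 3.11 and 1.03 CPM in sham and 368 and 618 CPM at day 60 (log2 fold change of 7.94 ± 0.75 with adjusted p = 0.000102). Mmp10, stromelysin 2, rose from 0 and 0 CPM in sham to 0.974 and 228 CPM at day 60 (thus at least 1098-fold higher, adjusted p = 0.0407, but 0.127 to 0.24 when any 1 library other than day 60 replicate 1 was left out), and its level differed widely between the 2 day 60 libraries. Timp1, an inhibitor of these enzymes, did not pass (-0.26).

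Growth factor systems that act in scars were partly higher. In the TGF-beta pathway 9 of 20 rose and none fell (median 0.87). Those that rose included the carriers Ltbp1, Ltbp2 and Ltbp3, the receptor Tgfbr2 and the target Tgfbi. Tgfbr2 lost its call with any 1 of the 4 libraries left out. Ltbp1 lost its call with day 60 replicate 2, sham replicate 1 or sham replicate 2 left out. Ltbp2, of the latent TGF-beta binding family, was at 0.0597 and 0 CPM in sham and at 688 and 750.3 CPM at day 60 (adjusted p = 3.98e-05). Ltbp3, which holds latent TGF-beta in the matrix, went from 9.44 and 24.4 CPM in sham to 325 and 496 CPM at day 60 (log2 fold change of 4.59 ± 0.62 with adjusted p = 0.000664). Tgfbi, a matrix protein induced by TGF-beta, stood at 1.91 and 1.13 CPM in sham and 691 and 1196 CPM at day 60 (log2 fold change of 9.30 ± 0.71 with adjusted p = 4.69e-05). Tgfb1 rose by 1.71 log2 units, whereas Tgfb2, Tgfb3 and the signal carriers Smad2, Smad3 and Smad4 did not pass. Of its members, 1 was lower with the replicate number as a block.

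In the insulin-like growth factor system 8 of 16 rose and none fell (median 1.88). Igf1, the growth factor, rose from 2.69 and 1.15 CPM in sham to 106 and 105 CPM at day 60 (log2 fold change of 5.80 ± 0.80 with adjusted p = 0.000757). Igfbp4, a binding protein that holds it back, was at 101 and 60.3 CPM in sham and at 4966 and 3529 CPM at day 60 (log2 fold change of 5.72 ± 0.56 with adjusted p = 0.000117). Igf2bp2, an RNA-binding protein, went from 0.239 and 0.0866 CPM in sham to 6.64 and 12.9 CPM at day 60 (log2 fold change of 6.18 ± 0.64 with adjusted p = 0.000165). Igf1r, the receptor, did not pass (1.23). Among these 16 genes, 1 was lower with the replicate number as a block.

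Genes for handling retinoic acid included 10 of 19 that rose and 2 that fell (median 1.40). Aldh1a2, the enzyme that makes retinoic acid, found in the adult brain mainly in the meninges, stood at 3.76 and 4.46 CPM in sham and 108 and 133 CPM at day 60 (log2 fold change of 4.87 ± 0.43 with adjusted p = 8.07e-05). Crabp2, which carries retinoic acid to the nucleus, rose from 2.27 and 1.19 CPM in sham to 60.8 and 44.9 CPM at day 60 (log2 fold change of 4.96 ± 0.54 with adjusted p = 0.000207). Rarb, a retinoic acid receptor and target, was at 9.86 and 7.95 CPM in sham and at 72.5 and 93.4 CPM at day 60 (log2 fold change of 3.22 ± 0.36 with adjusted p = 0.00024). Ttr, the carrier of thyroxine and retinol made by the choroid plexus, stood at 281 and 632 CPM in sham and 29.2 and 18.4 CPM at day 60 (log2 fold change of -4.26 ± 1.07 with adjusted p = 0.0142, but 0.0571 to 0.0962 when any 1 library other than sham replicate 1 was left out). Of the 19, 1 was lower without sham replicate 2, day 60 replicate 1 or day 60 replicate 2, and 5 were lower with the replicate number as a block.

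Most genes of lysosomal degradation were higher, in the same libraries as the macrophage markers, whose part in the result was not tested. Of 25 lysosomal genes 23 rose and none fell (median 2.40), and 19 to 21 rose with any 1 of the 4 libraries left out. Ctsk, cathepsin K, a collagen-degrading protease, went from 3.88 and 2.16 CPM in sham to 298 and 336 CPM at day 60 (log2 fold change of 6.73 ± 0.70 with adjusted p = 0.000173). Ctsl, cathepsin L, stood at 70.5 and 75 CPM in sham and 1349 and 1501 CPM at day 60 (log2 fold change of 4.29 ± 0.42 with adjusted p = 0.000117). Lamp2, a lysosomal membrane protein, rose from 48 and 53 CPM in sham to 518 and 831 CPM at day 60 (log2 fold change of 3.74 ± 0.41 with adjusted p = 0.000223). Grn, progranulin, was at 70.3 and 92.6 CPM in sham and at 928 and 1116 CPM at day 60 (log2 fold change of 3.65 ± 0.38 with adjusted p = 0.000161). Laptm5, which microglia express strongly, did not pass (0.38).

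Among 23 genes of lipid transport 13 rose and 1, Fabp7, the fatty acid binding protein of immature astrocytes, fell (median 1.86). Apod, apolipoprotein D, went from 104 and 86.4 CPM in sham to 8988 and 8426 CPM at day 60 (log2 fold change of 6.52 ± 0.47 with adjusted p = 4.12e-05); it lies at chr16:31296192-31314808, minus strand. Abca1, which exports cholesterol onto apolipoproteins, stood at 10.9 and 10.4 CPM in sham and 408 and 476 CPM at day 60 (log2 fold change of 5.38 ± 0.51 with adjusted p = 0.000106). Lpl, lipoprotein lipase, rose from 7.11 and 7.26 CPM in sham to 241 and 326 CPM at day 60 (log2 fold change of 5.30 ± 0.50 with adjusted p = 0.000103). Apoe, the main apolipoprotein of astrocytes, stood at 7330.3 and 4658 CPM in sham and 29175 and 12485 CPM at day 60 and did not pass (log2 fold change of 1.80 ± 0.68 with adjusted p = 0.0692). Of the lipid transport genes, 0 were lower without day 60 replicate 1 or day 60 replicate 2, and 2 were lower with the replicate number as a block. In the list of engulfment receptors and bridging molecules 11 of 24 rose and 2, Tyro3 and Elmo1, fell. Pros1, protein S, which bridges dying cells to receptors, was at 39.1 and 59 CPM in sham and at 415 and 806 CPM at day 60 (log2 fold change of 3.64 ± 0.46 with adjusted p = 0.000477). Msr1, a scavenger receptor of macrophages, went from 0.0597 and 0.519 CPM in sham to 4.75 and 13.5 CPM at day 60 (log2 fold change of 4.70 ± 0.80 with adjusted p = 0.00237). Cd36, a fatty acid and scavenger receptor, stood at 2.63 and 0.558 CPM in sham and 22 and 38.8 CPM at day 60 (log2 fold change of 4.34 ± 0.68 with adjusted p = 0.00151). Mertk, a main engulfment receptor of astrocytes, did not pass (-0.95).

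Among cholesterol synthesis genes more fell than rose. Of 21 genes tested 8 fell and 1, Ebp, rose (median -1.46). Sqle, squalene epoxidase, fell from 39.7 and 50.2 CPM in sham to 6.19 and 9.63 CPM at day 60 (log2 fold change of -2.50 ± 0.33 with adjusted p = 0.000584). Cyp51, lanosterol demethylase, was at 113 and 112 CPM in sham and at 20.7 and 27.7 CPM at day 60 (log2 fold change of -2.21 ± 0.34 with adjusted p = 0.00141). Srebf2, the transcription factor that drives the pathway, went from 315 and 372 CPM in sham to 64.7 and 65.4 CPM at day 60 (log2 fold change of -2.40 ± 0.46 with adjusted p = 0.00395). Ebp, a sterol isomerase, stood at 14.8 and 14.3 CPM in sham and 62.6 and 49.1 CPM at day 60 (log2 fold change of 1.94 ± 0.28 with adjusted p = 0.000995). Of its members, 5 were lower without sham replicate 1 or day 60 replicate 1, and 13 were lower with the replicate number as a block.

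Among the process lists, those of the respiratory chain and the ribosome had members that fell and none that rose. Of 29 nuclear-encoded respiratory genes 18 fell (median -1.86). Cox5b, a subunit of cytochrome oxidase, fell from 141 and 213 CPM in sham to 13.1 and 17.2 CPM at day 60 (log2 fold change of -3.54 ± 0.65 with adjusted p = 0.00329). Cox6c, a further subunit of this oxidase, was at 898 and 752 CPM in sham and at 105 and 57.3 CPM at day 60 (log2 fold change of -3.35 ± 0.55 with adjusted p = 0.0019). Cox7a2, also of this oxidase, went from 346 and 435 CPM in sham to 54.2 and 25.5 CPM at day 60 (log2 fold change of -3.29 ± 0.48 with adjusted p = 0.00107). Of 25 ribosomal protein genes 15 fell (median -2.03, and -1.30 without sham replicate 2). Rplp1, a protein of the large subunit stalk, stood at 156 and 226 CPM in sham and 19.9 and 22.8 CPM at day 60 (log2 fold change of -3.16 ± 0.61 with adjusted p = 0.00423). Rps24, a protein of the small subunit, fell from 96.9 and 117 CPM in sham to 24.5 and 10.7 CPM at day 60 (log2 fold change of -2.61 ± 0.46 with adjusted p = 0.00284). Rpl13, a protein of the large subunit, was at 32.1 and 60.7 CPM in sham and at 4.3 and 5.15 CPM at day 60 (log2 fold change of -3.29 ± 0.63 with adjusted p = 0.00416). Of the respiratory genes, 11 were lower without day 60 replicate 2. Of the ribosomal protein genes, 7 were lower without sham replicate 2 and 6 with day 60 replicate 2 left out. Ribosomal protein genes have many processed copies in the genome, so their counts are uncertain where reads match several places.

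The genes that fell in these lists were mostly short. Of the 29 respiratory genes 15 have a longest coding transcript under 1000 bases in GENCODE, and 15 of these 15 fell, against 3 of the other 14. Among ribosomal protein genes 10 of 14 short ones and 5 of 11 longer ones fell. Across the 14939 tested genes with a length, the 767 under 1000 bases had a median log2 fold change of -0.85, with 185 lower (24.1%) and 67 higher (8.74%), whereas medians of the longer classes lay between 0 and 0.10. Genes under 1000 bases took 4.96% and 5.65% of counts in sham and 3.42% and 2.63% at day 60. What part transcript length has in the result was not tested.

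Of 24 metallothioneins and antioxidant genes 6 were higher and 5 lower, where 16.8% of all genes tested rose and 14.8% fell. Their median was 0.10, and -0.03 to 0.25 with 1 of the 4 libraries left out. Mt3, the metal-binding metallothionein of the brain, went from 451 and 772 CPM in sham to 35.3 and 24.2 CPM at day 60 (log2 fold change of -4.36 ± 0.84 with adjusted p = 0.00438). Mt1 and Mt2 fell by 3.14 and 3.52 log2 units. Gpx3, a secreted glutathione peroxidase, stood at 10.7 and 10.5 CPM in sham and 4983 and 4083 CPM at day 60 (log2 fold change of 8.74 ± 0.56 with adjusted p = 3.98e-05); it lies at chr11:54902453-54910377, plus strand. Hmox1, haem oxygenase 1, rose from 4.06 and 3.6 CPM in sham to 56.2 and 52.9 CPM at day 60 (log2 fold change of 3.83 ± 0.36 with adjusted p = 9.82e-05). Nfe2l2, the transcription factor that turns on many of these genes, rose by 2.3 log2 units. The number that fell was 3 without day 60 replicate 2.

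Of 27 genes of glycolysis and the hypoxia response 5 rose and 3 fell (median -0.44, and 0.11 without sham replicate 2), and 19 did not pass. Adm, adrenomedullin, a vessel-widening peptide induced by hypoxia, was at 2.21 and 2.27 CPM in sham and at 56.5 and 30.6 CPM at day 60 (log2 fold change of 4.28 ± 0.65 with adjusted p = 0.00124). Aldoc, the aldolase form of astrocytes, went from 5275 and 5248 CPM in sham to 1155 and 1281 CPM at day 60 (log2 fold change of -2.11 ± 0.71 with adjusted p = 0.0451, but 0.108 to 0.156 when any 1 of the 4 libraries was left out). Hk2, hexokinase 2, stood at 1.61 and 1.34 CPM in sham and 12 and 6.84 CPM at day 60 (log2 fold change of 2.68 ± 0.63 with adjusted p = 0.0105, but 0.0539 to 0.0685 when any 1 library other than day 60 replicate 2 was left out). Vegfa, a hypoxia-induced growth factor of vessels, did not pass (-0.44). Of these genes 1 to 3 were higher with any 1 of the 4 libraries left out, 0 to 1 were lower with any 1 of the 4 libraries left out, and 8 were lower with the replicate number as a block.

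Most cell division genes did not pass. Of 30 tested 3 rose, 1 fell and 26 did not pass (median -0.15, and -0.53 to 0.40 with 1 of the 4 libraries left out). Mcm4, a subunit of the replication helicase, rose from 11.4 and 16 CPM in sham to 31.3 and 55.9 CPM at day 60 (log2 fold change of 1.67 ± 0.42 with adjusted p = 0.0145, but 0.0981 and 0.099 when day 60 replicate 2 or sham replicate 1 was left out). Mki67, the proliferation marker, stood at 1.97 and 3.72 CPM in sham and 4.87 and 3.34 CPM at day 60 (log2 fold change of 0.50 ± 0.55 with adjusted p = 0.513). Of the cell division genes, 0 were higher without sham replicate 1 and 1 with sham replicate 2 or day 60 replicate 2 left out, 0 to 3 were lower with any 1 of the 4 libraries left out, and 2 were lower with the replicate number as a block. Genes of arrest and senescence were partly higher, with 8 of 20 higher and 1, Ccnd1, lower (median 1.31, and 0.57 without day 60 replicate 1). Cdkn1c, an inhibitor of cyclin-dependent kinases, was at 53.4 and 54.5 CPM in sham and at 372 and 274 CPM at day 60 (log2 fold change of 2.58 ± 0.39 with adjusted p = 0.00129). Gadd45b, a stress-induced protein, went from 6.27 and 10 CPM in sham to 173 and 113 CPM at day 60 (log2 fold change of 4.13 ± 0.51 with adjusted p = 0.000407). Gdf15, a stress-induced secreted factor, stood at 0.179 and 0.106 CPM in sham and 18.3 and 5.82 CPM at day 60 (log2 fold change of 6.54 ± 0.94 with adjusted p = 0.000934). Cdkn1a and Cdkn2a, the inhibitors p21 and p16, did not pass (1.29 and 2.92). Among these 20 genes, 0 were lower without sham replicate 1 or day 60 replicate 2, and 3 were lower with the replicate number as a block.

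Immediate early genes, which respond within minutes to stimulation and also to tissue dissociation, included 8 of 22 that rose and 2, Arc and Nr4a2, that fell (median 1.57, and 0.98 without day 60 replicate 1). Fos, a subunit of the AP-1 transcription factor, rose from 83.9 and 76.3 CPM in sham to 883 and 531 CPM at day 60 (log2 fold change of 3.14 ± 0.63 with adjusted p = 0.00511). Junb, another AP-1 subunit, was at 116 and 78.2 CPM in sham and at 1284 and 612 CPM at day 60 (log2 fold change of 3.29 ± 0.67 with adjusted p = 0.00574). Fosb, of the same factor, went from 1.85 and 0.51 CPM in sham to 27 and 5.15 CPM at day 60 (log2 fold change of 3.85 ± 1.24 with adjusted p = 0.0384, but 0.0765 to 0.236 when any 1 library other than day 60 replicate 2 was left out). Egr1 did not pass (1.26). Without sham replicate 1, sham replicate 2 and day 60 replicate 1 the number that rose was 4, 2 and 3, and the number that fell was 1 and 0 with sham replicate 1 or day 60 replicate 2 left out.

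Of 18 clock genes 1 rose and 4 fell (median -0.18, and -0.41 to -0.01 with 1 of the 4 libraries left out). Nfil3, a repressor within the clock, stood at 11.8 and 8.49 CPM in sham and 93.1 and 62 CPM at day 60 (log2 fold change of 2.94 ± 0.51 with adjusted p = 0.00246). Cry2, a repressor of the core loop, fell from 175 and 189 CPM in sham to 68.6 and 56.4 CPM at day 60 (log2 fold change of -1.54 ± 0.36 with adjusted p = 0.0099, but 0.0676 when day 60 replicate 2 was left out). The core activators Arntl and Clock did not pass (-0.02 and 0.17). Of the clock genes, 1 was lower without sham replicate 2 and 0 with day 60 replicate 2 left out, and 2 were higher with the replicate number as a block. Of 25 Notch, Wnt and neurogenic genes 6 were higher and 8 lower, where 16.8% of all genes tested rose and 14.8% fell. Their median was -0.45, and -0.14 without sham replicate 1. Wnt7b, a Wnt ligand, was at 73.8 and 62.9 CPM in sham and at 7.05 and 9.53 CPM at day 60 (log2 fold change of -3.04 ± 0.61 with adjusted p = 0.00534). Fzd1, a Wnt receptor, went from 9.38 and 4.4 CPM in sham to 62.6 and 66.1 CPM at day 60 (log2 fold change of 3.23 ± 0.53 with adjusted p = 0.00192). Id3, an inhibitor of neurogenic transcription factors, stood at 180.2 and 117 CPM in sham and 1546 and 775 CPM at day 60 (log2 fold change of 2.96 ± 0.50 with adjusted p = 0.00234). Hes5 and Hey2, targets of Notch, fell by 2.88 and 3.09 log2 units, and Sox2, a transcription factor of neural stem cells and astrocytes, by 2.43. The call was lost for Hes5 with day 60 replicate 2 or sham replicate 1 left out, Hey2 with day 60 replicate 1, day 60 replicate 2 or sham replicate 1 left out and Sox2 with day 60 replicate 2 or sham replicate 1 left out. Of these genes 1 was lower without sham replicate 1 or day 60 replicate 2 and 5 with day 60 replicate 1 left out.

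Genes were also ranked by fitted log2 fold change, which for genes with 0 or 1 count in sham depends on the prior count and gives no order of measured size. The ranking took genes that passed, with at least 10 CPM at day 60 and no overlap between the groups. Clone names, such as Gm numbers or Rik symbols, were left out. The 12 largest rises among the genes ranked were C6, Cxcl13, Ltbp2, Mmp10, Mmp12, Cd5l, Kng1, Dpep1, Kng2, Hgd, Ssc5d and Saa4. None of these had more than 1 count in the 2 sham libraries. C3 and Mmp3, which had counts in both sham libraries, rose by 13.34 and 12.85 log2 units. C6, a component of the membrane attack complex, rose from 0 and 0 CPM in sham to 147 and 228 CPM at day 60 (thus at least 1800.4-fold higher, adjusted p = 0.000147). Kng1, kininogen 1, the source of bradykinin, was at 0 and 0 CPM in sham and at 33.4 and 47.2 CPM at day 60 (thus at least 388-fold higher, adjusted p = 0.00154). Kng2 is near-identical to Kng1, so reads of the pair are uncertain. Dpep1, a membrane dipeptidase, went from 0 and 0 CPM in sham to 34.7 and 41.1 CPM at day 60 (thus at least 364-fold higher, adjusted p = 4.69e-05). Ssc5d, a scavenger receptor protein, stood at 0 and 0 CPM in sham and 15.5 and 29.1 CPM at day 60 (thus at least 214-fold higher, adjusted p = 0.000221). Saa4, the constitutive serum amyloid A, rose from 0 and 0 CPM in sham to 6.64 and 37.3 CPM at day 60 (thus at least 211-fold higher, adjusted p = 0.00233). Hgd, an enzyme of tyrosine breakdown, was at 0 and 0 CPM in sham and at 20.2 and 27.7 CPM at day 60 (thus at least 230.0-fold higher, adjusted p = 0.00988, but 0.0671 when sham replicate 2 was left out).

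Under the same conditions, with at least 10 CPM in sham, the 12 largest falls were Alas2, Sema4f, Grin3a, Ppp1r14c, Dmrtc1a, Fam19a2, Fezf2, Plagl1, P2ry12, Mt3, Krt77 and Ttr. The call was lost for Sema4f with sham replicate 1 or sham replicate 2 left out, Dmrtc1a with day 60 replicate 2 left out and Krt77 with day 60 replicate 2 or sham replicate 2 left out. Alas2, the haem synthesis enzyme of red blood cell precursors, went from 244 and 291 CPM in sham to 5.04 and 4.42 CPM at day 60 (log2 fold change of -5.82 ± 0.80 with adjusted p = 0.000728). Grin3a, an NMDA receptor subunit of neurons, stood at 10.3 and 13.2 CPM in sham and 0.172 and 0.566 CPM at day 60 (log2 fold change of -4.89 ± 1.11 with adjusted p = 0.00904, but 0.0548 when day 60 replicate 1 was left out). Fezf2, a transcription factor of deep-layer projection neurons, fell from 36.7 and 32.2 CPM in sham to 0.401 and 2.37 CPM at day 60 (log2 fold change of -4.57 ± 0.89 with adjusted p = 0.00452). Fam19a2, a secreted protein of neurons, was at 37.7 and 33.3 CPM in sham and at 0.573 and 2.21 CPM at day 60 (log2 fold change of -4.62 ± 0.71 with adjusted p = 0.00135). Plagl1, an imprinted zinc finger factor, went from 11.9 and 13.1 CPM in sham to 0.802 and 0.348 CPM at day 60 (log2 fold change of -4.53 ± 0.67 with adjusted p = 0.00113). Ppp1r14c, a phosphatase inhibitor, stood at 15.2 and 10.7 CPM in sham and 0.344 and 0.631 CPM at day 60 (log2 fold change of -4.68 ± 0.75 with adjusted p = 0.00167). Exons of Alas2 overlap Apex2 on the other strand and those of P2ry12 overlap Med12l, and the strand setting of the counting is not given in the sources used here, so reads of these pairs cannot be told apart.

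Day 60 was next set against day 21, with which it shares no library, to ask whether expression still moved between these times. No gene of 15635 passed (0%) in edgeR's test, 847 had an unadjusted p under 0.05, DESeq2's Wald test called 115 (13 higher and 102 lower), edgeR called 21 with the replicate number as a block (4 higher and 17 lower) and 5 when it was fitted on the 4 libraries alone. The groups did not overlap for 37.8% of genes (17.5% higher and 20.3% lower at day 60). Libraries of the 2 times had correlations of log2 CPM of 0.918 (replicates 1) and 0.954 (replicates 2) across the 15635 genes, which are not independent replicates, next to 0.892 between the 2 day 60 replicates and 0.718 to 0.770 between day 60 and sham libraries. The values between the 2 times join libraries of the same replicate number and of nearer depth. The value between the day 60 replicates joins libraries of different number that are 9.63 times apart in depth. These values are thus not like measures, and day 60 was not compared with day 21 across replicate numbers. With clone names left out, the genes with the smallest unadjusted p on the higher side were Lhx8, Penk and Car3. Lhx8, a homeobox factor of basal forebrain neurons, stood at 3.75 and 3.77 CPM at day 21 and 52.5 and 77 CPM at day 60 (log2 fold change of 4.11 ± 0.50 with adjusted p = 0.101). Penk, proenkephalin, stood at 11.5 and 8.89 CPM at day 21 and 53.4 and 37.8 CPM at day 60 (log2 fold change of 2.16 ± 0.37 with adjusted p = 0.145). Car3, carbonic anhydrase 3, stood at 1.12 and 3.01 CPM at day 21 and 111 and 112 CPM at day 60 (log2 fold change of 5.72 ± 1.03 with adjusted p = 0.189). On the lower side they were Fcrls, Prlr and Cst7. Fcrls, a receptor of microglia, stood at 117 and 119 CPM at day 21 and 11.3 and 11.4 CPM at day 60 (log2 fold change of -3.38 ± 0.40 with adjusted p = 0.0838). Prlr, the prolactin receptor, stood at 27.6 and 24 CPM at day 21 and had 0 counts at day 60 (adjusted p = 0.0838). Cst7, cystatin F of phagocytes, stood at 34.9 and 37.8 CPM at day 21 and 0.344 and 1.17 CPM at day 60 (log2 fold change of -5.48 ± 0.74 with adjusted p = 0.0838).

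No list had a member that passed against day 21. The list medians with the widest difference were ependymal and choroid plexus markers at -3.21, neutrophil markers at -2.85 and microglia markers at -1.45. Neutrophil markers held 0.039% and 0.0445% of counts at day 21 and 0.0417% and 0.0575% at day 60, so their share did not fall. Without Mmp9 they held 0.00122% and 0.00174% at day 60, and the day 21 share without it was not computed. Microglia markers held 0.337% and 0.284% of counts at day 21 and 0.184% and 0.117% at day 60. Igj, the immunoglobulin joining chain, stood at 1.18 and 0.636 CPM at day 21 and 30.7 and 20.2 CPM at day 60 (log2 fold change of 4.84 ± 0.96 with adjusted p = 0.239). C3 stood at 3611 and 6280.0 CPM at day 21 and 3005 and 7265 CPM at day 60. For Serping1 the values were 6869 and 7500.1 CPM at day 21 and 5677 and 7100.1 CPM at day 60, and for Dcn 5921 and 8991 CPM at day 21 and 7202 and 9309 CPM at day 60. The ranges of the 2 times overlapped for each of these 3 genes.

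Against day 7 the cells of day 60 differed in 617 genes (3.95%), of which 243 were higher (1.55%) and 374 lower (2.39%). With plain library totals in place of TMM 504 passed and 60.9% of them were higher, against 39.4% with TMM, and the median of all genes moved from 0.01 to 0.34, so which direction held more genes depended on the scaling. The count was 1942 with the replicate number as a block (885 higher and 1057 lower). Leaving out day 60 replicate 1 or 2 left 44 or 332 genes, and leaving out day 7 replicate 1 or 2 left 55 or 113. The 2 groups did not overlap for 52.3% of genes (25.8% higher and 26.5% lower at day 60). Cell division genes had 12 of 30 members lower than at day 7, none higher and a median of -2.16. Mki67 stood at 25.7 and 15.8 CPM at day 7 and 4.87 and 3.34 CPM at day 60 (log2 fold change of -2.34 ± 0.57 with adjusted p = 0.0499). Collagens had 12 of 28 lower and none higher (median -2.69). Col6a3 fell from 649.7 and 770.0 CPM at day 7 to 49.7 and 46.3 CPM at day 60 (log2 fold change of -3.89 ± 0.45 with adjusted p = 0.00418), whereas Col1a1, which did not pass, stood at 26348 and 85889 CPM at day 7 and 1061 and 2871 CPM at day 60 (log2 fold change of -4.83 ± 1.45 with adjusted p = 0.0914). Microglia markers had 13 of 18 lower (median -2.95), with 1% and 0.484% of counts at day 7 against 0.184% and 0.117% at day 60. Astrocyte identity genes had 7 of 35 higher and none lower (median 1.85).

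Named by size against day 7, under the same conditions as against sham, the largest rises were Lhx8, Car3, Cxcl5, Adamdec1 and Igj. Cxcl5 stood at 0.202 and 0.353 CPM at day 7 and 147 and 121 CPM at day 60 (log2 fold change of 8.79 ± 0.66 with adjusted p = 0.000709). Adamdec1, a secreted metalloproteinase-like protein, stood at 0.202 and 0 CPM at day 7 and 10.7 and 23.1 CPM at day 60 (adjusted p = 0.0375). Igj went from 0.134 and 0.093 CPM at day 7 to 30.7 and 20.2 CPM at day 60 (log2 fold change of 7.89 ± 1.15 with adjusted p = 0.00811). Lhx8 had no counts in either day 7 library. The largest falls were Gal, Eln, Fcrls, Cst7 and Lrrc15. Eln, elastin, stood at 12243 and 63859.8 CPM at day 7 and 43.6 and 99.7 CPM at day 60 (log2 fold change of -9.05 ± 1.89 with adjusted p = 0.0309). Fcrls stood at 724 and 439 CPM at day 7 and 11.3 and 11.4 CPM at day 60 (log2 fold change of -5.68 ± 0.44 with adjusted p = 0.000709). Cst7 fell from 49.5 and 30 CPM at day 7 to 0.344 and 1.17 CPM at day 60 (log2 fold change of -5.61 ± 0.74 with adjusted p = 0.00574). Lrrc15, a membrane protein of activated fibroblasts, stood at 39.3 and 19.5 CPM at day 7 and 0 and 0.283 CPM at day 60 (log2 fold change of -7.30 ± 1.15 with adjusted p = 0.0111). Gal, the neuropeptide galanin, had 36.3 and 47.2 CPM at day 7 and none at day 60. Acute phase genes had 5 of 19 higher than at day 7 and complement genes 4 of 21 higher and 4 lower. C3 went from 26 and 38.4 CPM at day 7 to 3005 and 7265 CPM at day 60 (log2 fold change of 7.32 ± 1.17 with adjusted p = 0.0118), and Serping1 went from 1093 and 1361 CPM at day 7 to 5677 and 7100.1 CPM at day 60 (log2 fold change of 2.38 ± 0.43 with adjusted p = 0.0188).

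**Figure D4:**
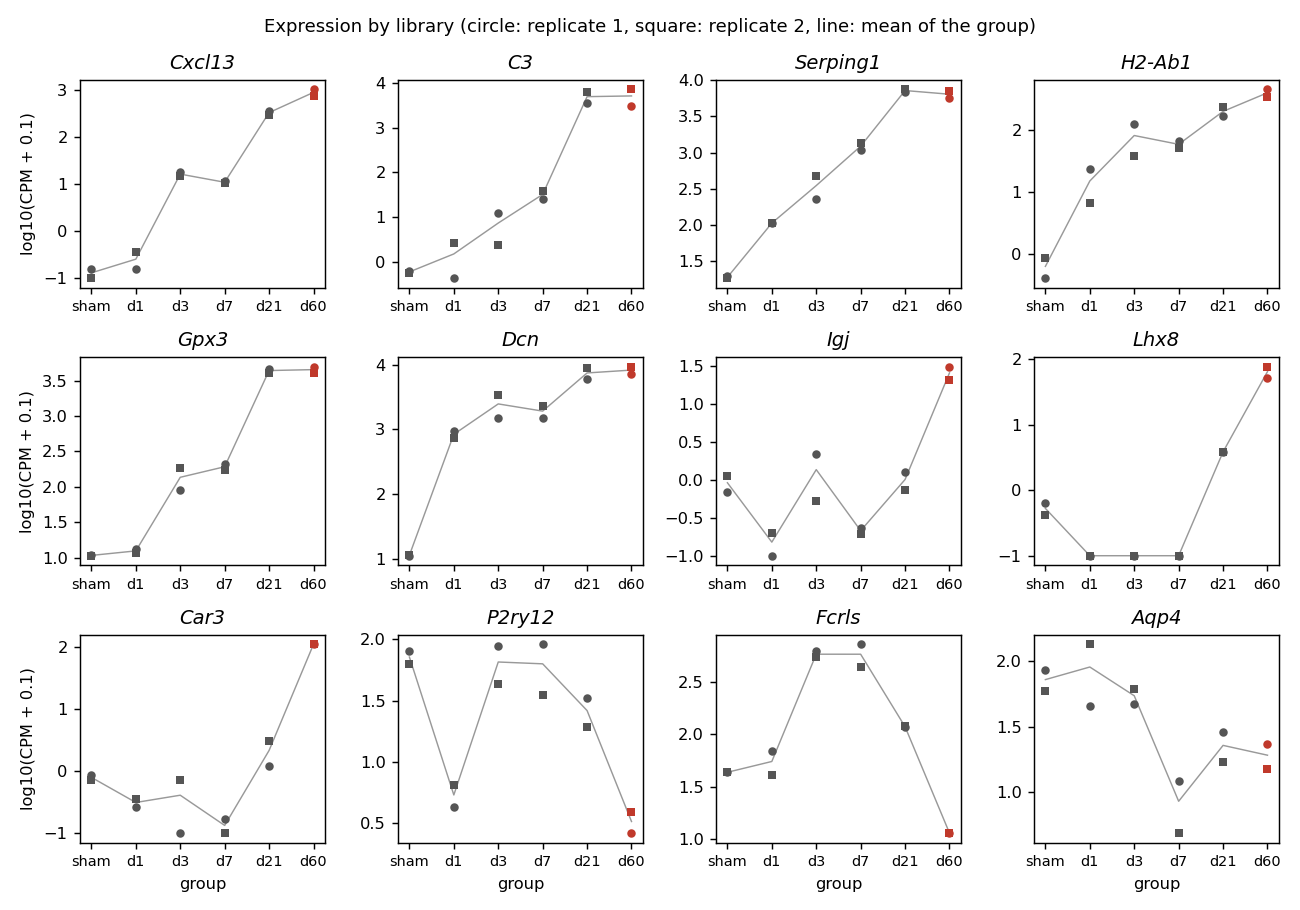
Level of 12 genes in each of the 12 libraries, as log10 of CPM plus 0.1, by group (sham and days 1, 3, 7, 21 and 60 after stroke), with a circle for replicate 1, a square for replicate 2, day 60 in red and a line through the group means. Cxcl13, C3, Serping1, H2-Ab1, Gpx3 and Dcn lie high at days 21 and 60, Igj, Lhx8 and Car3 are highest at day 60, and P2ry12 and Fcrls are lowest there.

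**Figure D5:**
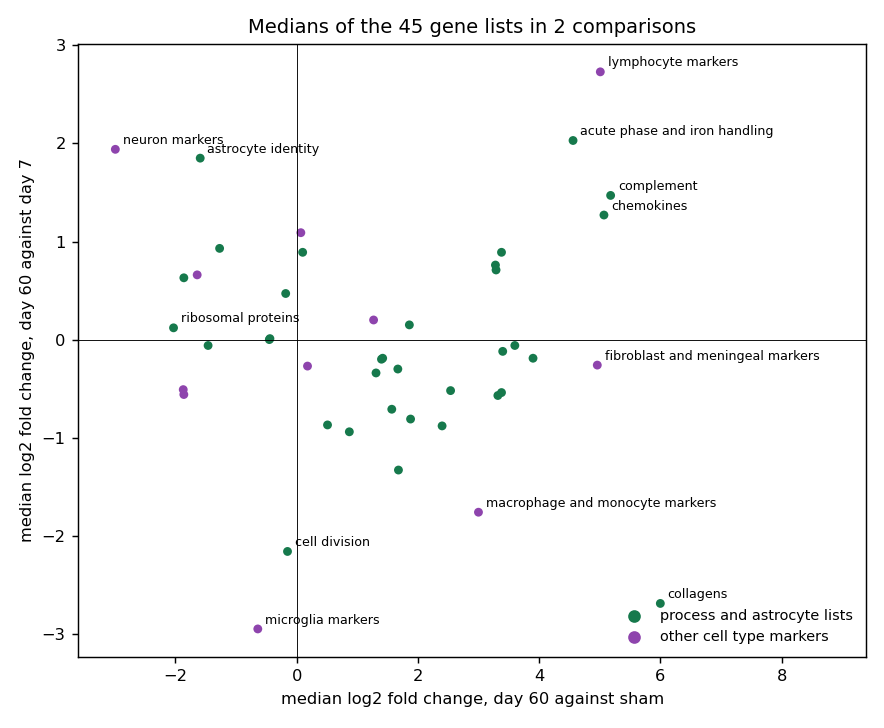
Median log2 fold change of each of the 45 gene lists for day 60 against sham (horizontal axis) and against day 7 (vertical axis), in green for process and astrocyte lists and in purple for markers of other cells. Both axes use the same day 60 libraries, so the points are not independent; collagens stand at 6.00 and -2.69, astrocyte identity at -1.59 and 1.85, and cell division at -0.15 and -2.16.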

How the data were processed

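RNA sequencing libraries of sorted cortical astrocytes were available for sham and 5 times after stroke, 2 per group. The authors deposited whole-number counts per gene without normalization. Reads were aligned with Bowtie2 2.3.4.2 to mm10 and counted with HTSeq 0.6.1, per the submitters' processing notes; the strand setting and the annotation used are not given in the sources used here. The per-library files and the table of the whole series held the same 189288 values.

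The tests used edgeR 4.0.16 under R 4.3.3, with limma 3.58.1. Genes passing filterByExpr with a minimum count of 10 were kept (139 left out). A quasi-likelihood model with TMM scaling and 1 term per group was fitted to the 12 libraries together, which left 6 residual degrees of freedom; day 60 was then set against sham, day 21 and day 7, with Benjamini-Hochberg adjustment over all genes. An exact permutation test of 2 against 2 libraries cannot go below p = 0.333 and was not used. The script was tested on simulated data. DESeq2 1.42.0, other scalings and filters, thinning to equal depth, leaving out libraries and a replicate block were tried as alternatives. Replicates with the same number deviated together from their group means (correlations of 0.319 to 0.713 in 15 of 15 pairs of groups, each above the threshold of 0.1). The numbers were therefore taken to pair the libraries. This pairing comes from the data, since the labels give the number alone. The main fit, which gave the p-values, standard errors and calls in the text, has no term for the pairing. The replicate block has one, and with it 6834 genes passed against sham in place of 4929.

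Genes were named by a rule: the 12 largest changes in each direction against sham with at least 10 CPM in the higher group, the 5 largest in each direction against day 7 (or the 3 smallest unadjusted p in each direction where none passed), up to 4 called members of each list with at least 1 CPM, and a set of landmark genes. Clone names, such as Gm numbers or Rik symbols, were left out of the rankings by size or by p. The rankings by size took only genes with adjusted p under 0.05 and no overlap between the groups. The 45 lists and the landmark genes were chosen with earlier results of these data known. Positions come from GENCODE M21 (211 of 213 named genes matched, of which 210 are protein-coding; exons of 4 overlap another gene on the same strand and 14 on the other), and promoter sequences from RefSeq. Some list members are counted in the totals but not reported here by name.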

Additional observations from a re-analysis of the deposited data

Results flagged for a closer look

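For 10 genes the change from sham at day 60 differed from the change at day 7 by a test of that difference, which is the comparison of day 60 with day 7 (edgeR's quasi-likelihood test, Benjamini-Hochberg adjusted over all genes). Because both changes are taken against the same sham libraries, the difference equals the log2 fold change between the 2 times. The difference was positive for 5 genes, namely Lhx8 with 15.04, Car3 with 13.25, Cxcl5 with 8.79, Adamdec1 with 8.47 and Igj with 7.89. It was negative for the other 5, namely Gal with -14.41, Eln with -9.05, Lrrc15 with -7.30, Fcrls with -5.68 and Cst7 with -5.61. The values for Lhx8, Car3, Adamdec1, Gal and Lrrc15 are fitted values with 0 counts in at least 1 library of a group, so their size depends on the prior count and is no bound. These genes were picked by their size among the 617 that differed between day 60 and day 7, and that number fell to 44 without day 60 replicate 1 and to 55 without day 7 replicate 1.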

How the results depend on the processing

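Against sham, the count of 4929 genes became 4969 with DESeq2's size factors, 4568 with plain library totals, 4904 with no filter on low counts, 4976 with a minimum count of 50, 4876 with all libraries thinned to the shallowest, 4493 with only the 4 libraries compared and 6231 with DESeq2's Wald test. The share of higher genes among those called was 48.6% with size factors, 56.5% with plain totals and 47.4% with the Wald test, against 53.2% with TMM. Leaving out 1 library at a time gave 2654 to 3441 genes. Against day 21 the count of 0 became 115 with the Wald test and 5 with only the 4 libraries compared, and it was 0 without any 1 library. Against day 7 the count of 617 became 2087 with the Wald test, and 44 to 332 with 1 library left out. The cause of these shifts was not tested, but leaving out a library also leaves 1 library in a group, which is then assumed to vary like the other groups.

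With the replicate number as a block, which follows the pairing, the counts were 6834 against sham, 21 against day 21 and 1942 against day 7. Of 191 named genes that passed against sham none lost the call under the block, and 4 others gained one. The calls kept were 188 with size factors, 182 with plain totals, 191 with no filter, 190 with a minimum count of 50, 190 with the Wald test, 181 with the 4 libraries alone and 186 after thinning. Leaving out 1 library kept 157 to 168, and 44 of the 191 lost the call without at least 1 of the 4 libraries. No named gene reversed under the alternatives run. Depth limits the genes near the floor of 3 counts in a library, which is 0.179 CPM in sham replicate 1 and 0.172 CPM in day 60 replicate 1, but 0.0289 and 0.0218 CPM in the replicates 2.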

Other observations

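Gene families taken by their symbols were counted after the values were seen, so the counts are descriptions. Of 84 potassium channel genes tested (symbols starting with Kcn), 40 fell and 5 rose against sham (median log2 fold change -2.18), where 14.8% of all genes fell and 16.8% rose. Of 38 genes for glutamate and GABA-A receptors 21 fell and none rose (median -2.76). Of 38 genes with the sodium and calcium channel symbols Scn and Cacn, whatever their function, 16 fell and 2 rose (median -2.25). Neurons express many genes of these 3 families, and neuron markers fell in the same libraries from 1.07% and 1.23% of counts in sham to 0.159% and 0.123% at day 60; the part of neuronal RNA in these counts was not tested. Of 76 mitochondrial ribosomal protein genes 15 fell and none rose (median -0.54).

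On the other side, 11 of 28 genes with integrin symbols (starting with Itga or Itgb) rose and none fell (median 1.40). Of all genes tested 16.8% rose and 14.8% fell. Integrins are receptors for the extracellular matrix, but these symbols also take in the integrin-like gene Itgbl1, which rose. Of 11 laminin genes, which encode chains of the basement membrane, 7 rose and none fell (median 2.84). Of 60 interleukin and interleukin receptor genes 22 rose and 2 fell (median 1.27), and of 12 Toll-like receptor genes 4 rose and none fell (median 1.97). Solute carriers, the largest family of membrane transporters counted here, had 95 of 306 members higher and 38 lower (median 0.37). Zinc finger genes with the symbol Zfp had 8 of 340 higher and 25 lower (median 0.02), and proteasome genes 4 of 39 higher and 1 lower. Both families lay below the shares over all genes in both directions.

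Among the genes tested, 343 had 0 counts in both sham libraries. Of these, 76 reached a mean of at least 1 CPM at day 60 and 20 reached at least 10 CPM.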
